A study of Homo sapiens with 8 samples.

Results

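The ETS genes ERG, FLI1, ETV6, ETV5, ETS1, ETS2, ELF1, ELF4, GABPA and ELK3 were followed in Kasumi-1 cells, an acute myeloid leukemia (AML) line that carries the AML-ETO translocation. All probe sets listed with exactly 1 gene symbol for these 10 genes were taken, which gave 34 of the 54613 probe sets in the table and all 10 of the genes, of 19775 genes with such a probe set. A probe set is a group of short oligonucleotides on the array that reads 1 transcript or a few related ones. The cells were electroporated with in vitro transcribed mRNA for wild type NR4A1 (NR4A1 WT, 3 arrays), for NR4A1 with a mutated zinc finger in its DNA binding domain (NR4A1 CEAA, 2 arrays), or for GFP as the control (3 arrays). Affymetrix U133 Plus arrays were hybridized with total RNA from 6 h after electroporation. All 3 groups are the same cell line, with the translocation, and went through the same electroporation. The study describes the line as making no NR4A proteins of its own, so that the nuclear receptor came from the added mRNA. The comparisons ask which transcripts differ after NR4A1 WT, and which of these differences depend on an intact DNA binding domain.

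ETS factors are transcription factors that read a GGAA core through a shared DNA binding domain, the ETS domain, and differ in partners, in upstream signals and in whether they activate or repress. ERG and FLI1 maintain hematopoietic stem cells, megakaryocytes and endothelium, and in AML with the AML-ETO fusion they are found at many sites that the fusion occupies. ETV6 (TEL) is a repressor needed in bone marrow stem cells, GABPA binds promoters of housekeeping and mitochondrial genes, and ETV5, ETS1, ETS2 and ELK3 respond to the RAS and ERK pathway. NR4A1 is an orphan nuclear receptor that binds the NBRE, AAAGGTCA, as a monomer.

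The deposited values are log2 intensities after Robust Multiarray Analysis (RMA), with array medians of 4.755 to 4.802. A level under the median of its array is called dim here and is not shown to be above background. No level was set against that of another probe set. The difference of 2 arrays of a group had an SD of 0.158 to 0.227 across probe sets (7 pairs). Of 6 measured myeloid blast markers, 6 lay above the median in the 8 arrays, among them MPO at 14.34 to 14.43 and KIT at 13.45 to 13.78. Their mean level was 10.48 to 10.57 after NR4A1 WT, 10.64 to 10.68 after NR4A1 CEAA and 10.45 to 10.57 after GFP, and their part in the differences below was not tested. RUNX1T1 (ETO), the partner gene of the translocation, was lower after NR4A1 WT than after GFP by 0.36 (adjusted p = 0.00462, limma), and PTPRC (CD45) was higher by 0.52 (adjusted p = 0.00635, limma). After NR4A1 CEAA, PTPRC was higher than after GFP by 0.48 (adjusted p = 0.0161, limma) and KIT by 0.25 (adjusted p = 0.0396, limma). The mean of 3 T cell markers was dim in the 8 arrays (4.56 to 4.75), with CD3G dim throughout. The other T cell markers were not, with CD3D above the median in 8 arrays (5.04 to 5.38) and CD3E in 7 (4.60 to 4.98). The means of the B cell (4.50 to 5.01), erythroid (5.05 to 5.35) and fibroblast lists (5.58 to 5.86) overlapped between groups. The epithelial list, led by EPCAM at 11.43 to 11.86, averaged 7.35 to 7.42 after NR4A1 WT, 7.53 and 7.54 after NR4A1 CEAA and 7.46 to 7.48 after GFP. With NR4A1 WT, 4 markers were lower than with NR4A1 CEAA, namely RUNX1T1 by 0.50 (adjusted p = 0.000861), KIT by 0.27 (adjusted p = 0.0166), EPCAM by 0.35 (adjusted p = 0.00597) and the dim MS4A1 by 0.38 (adjusted p = 0.0318, all by limma). Neither the labels nor the text says whether the replicates of a group are separate cultures, and the p-values cover the spread between arrays and no more. In bulk RNA, fewer cells with a transcript and less of it per cell cannot be told apart.

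The promoter windows of ERG, ETV6 and GABPA are shown because ERG and ETV6 were lower after NR4A1 WT and GABPA was higher after both forms of NR4A1. Each window runs from 250 bases before to 50 bases after an annotated start (RefSeq, build GRCh38.p14), 5′ to 3′ on the strand of the gene, with the ETS core GGAA or its complement TTCC in capitals. ERG lies at chr21:38660618-38660917 on the minus strand (the first of 4 listed windows), ETV6 at chr12:11649424-11649723 on the plus strand and GABPA at chr21:25734722-25735021 on the plus strand.
ERG: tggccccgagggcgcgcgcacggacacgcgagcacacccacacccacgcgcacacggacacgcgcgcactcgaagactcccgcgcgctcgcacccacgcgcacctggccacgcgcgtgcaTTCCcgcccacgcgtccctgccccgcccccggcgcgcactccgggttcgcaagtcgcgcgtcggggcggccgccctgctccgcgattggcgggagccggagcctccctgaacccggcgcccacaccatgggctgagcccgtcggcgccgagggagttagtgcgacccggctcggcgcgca
ETV6: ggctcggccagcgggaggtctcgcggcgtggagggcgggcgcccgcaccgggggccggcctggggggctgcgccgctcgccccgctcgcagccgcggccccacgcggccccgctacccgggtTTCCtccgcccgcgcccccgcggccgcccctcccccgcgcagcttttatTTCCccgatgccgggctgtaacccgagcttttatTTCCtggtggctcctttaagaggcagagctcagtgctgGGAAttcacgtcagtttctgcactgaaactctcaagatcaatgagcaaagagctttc
GABPA: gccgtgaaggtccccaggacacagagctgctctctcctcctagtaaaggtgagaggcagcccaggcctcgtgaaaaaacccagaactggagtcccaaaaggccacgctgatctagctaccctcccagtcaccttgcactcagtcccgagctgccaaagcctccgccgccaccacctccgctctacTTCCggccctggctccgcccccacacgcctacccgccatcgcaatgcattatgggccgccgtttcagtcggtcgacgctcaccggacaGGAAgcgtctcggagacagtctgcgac

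The ETS core, searched on both strands, occurred 1 time in the ERG window, 4 times in that of ETV6 and 2 times in that of GABPA. It stood in 15 of 16 windows of the 7 members with a listed window, beside 95.5% of 35116 human promoter windows. The longer consensus CCGGAAGT, which contains the core, was found only in the GABPA window, on the reverse strand at position -67 from the start, beside 4.14% of all windows. The NBRE was found in 0 of the 16 windows, beside 1.22% of all windows. These are matches of letters in 1 short window per start, and FLI1, ETV5 and ETS1 are named only. At a share of 1.22%, a count of 0 in 16 windows says little about binding. The study places most NR4A1 binding at regulated genes distal to the start, and it lists ERG among directly repressed genes.

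After NR4A1 WT, transcripts of ERG, ETV6 and ETS2 were lower than after GFP, and transcripts of ETV5 and GABPA were higher. Of the 34 probe sets, 7 were lower and 2 higher in limma, at a limit of 0.05 on p adjusted by the Benjamini-Hochberg method across the whole table. That was 20.6% lower and 5.88% higher, beside 5.56% lower and 5.06% higher among all 54613 probe sets. The 7 lower probe sets belonged to 3 genes, so they are not 7 separate observations. FLI1, ETS1, ELF1, ELF4 and ELK3 had no call. The median difference of the 34 was 0.03 on the log2 scale and that of all probe sets 0.00. Rank Product, the test the study used, passed 4 as lower and 1 as higher at a q of up to 0.05, beside 1.46% lower and 1.48% higher among all probe sets.

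NR4A1 CEAA, set against the same GFP arrays, gave another pattern. Of the 34 probe sets, 5 were higher and 2 lower (14.7% and 5.88%), beside 5.91% higher and 6.81% lower among all probe sets. The higher ones were of ERG, ETV6, ELF1 and GABPA and the lower ones of FLI1 and ETV5. The median difference was 0.03, that of all probe sets -0.01. By Rank Product 1 was lower and none higher, beside 1.4% lower and 0.566% higher among all. In the direct comparison of the 2 forms, 12 of the 34 were lower with NR4A1 WT and 5 higher (35.3% and 14.7%), beside 10.9% lower and 11.2% higher among all probe sets. The 12 were of ERG, ETV6, ETS2, ELF1 and GABPA, and ELF4 and ELK3 alone had no call in this comparison. By Rank Product 1 was lower and 2 were higher, beside 0.716% lower and 1.74% higher among all.

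**Figure D1:**
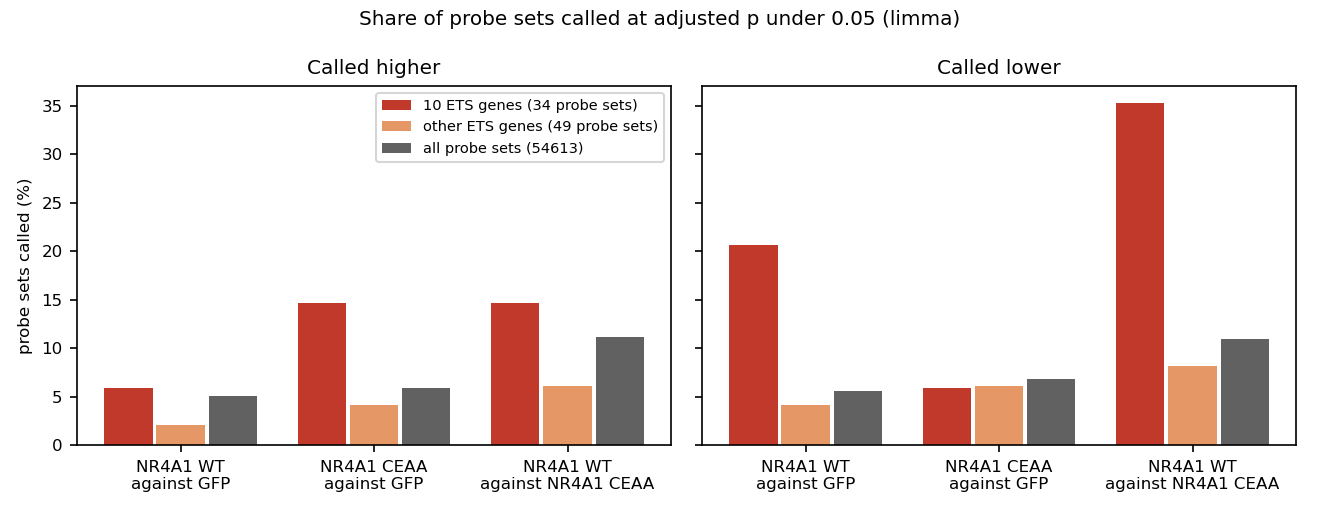
Share of probe sets (percent) called higher (left) and lower (right) by limma at an adjusted p under 0.05 in each comparison, for the 10 ETS genes, for other ETS genes and for all probe sets. The 10 genes stand at 20.6% lower after NR4A1 WT than after GFP, beside 5.56% of all probe sets, and at 5.88% higher, beside 5.06%. They were chosen with earlier results of these data known, and levels were not matched, so the shares are descriptions.

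ERG, an oncogene of AML and a factor of blood stem cells, fell after NR4A1 WT in 3 of its 4 probe sets. The brightest, 213541_s_at, read 8.30, 8.39 and 8.31 after NR4A1 WT, 9.03 and 9.03 after NR4A1 CEAA, and 8.91, 8.92 and 8.94 after GFP. All NR4A1 WT arrays lay below all others. The difference NR4A1 WT minus GFP was -0.59 (standard error 0.06, adjusted p = 0.000328, limma) and it passed Rank Product (q = 0.0433). NR4A1 CEAA minus GFP was 0.11 (adjusted p = 0.344, limma), with a 95% interval of -0.04 to 0.26, and NR4A1 WT minus NR4A1 CEAA was -0.70 (standard error 0.07, adjusted p = 0.000159, limma).

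The second ERG probe set, 241926_s_at, read 7.13, 6.89 and 6.71 after NR4A1 WT, 8.15 and 8.04 after NR4A1 CEAA, and 7.67, 7.74 and 7.45 after GFP. Its 3 groups did not overlap, with GFP in the middle. Against GFP it was lower by 0.71 after NR4A1 WT (standard error 0.12, adjusted p = 0.00495, limma) and higher by 0.47 after NR4A1 CEAA (standard error 0.13, adjusted p = 0.0474, limma). The higher call after NR4A1 CEAA was lost in 8 of 16 settings (adjusted p = 0.00554 to 0.246) and had a Rank Product q of 0.353. It ended without GFP replicate 1 (0.0926), 2 (0.0623) or 3 (0.131), NR4A1 WT replicate 2 (0.0622), or NR4A1 CEAA replicate 1 (0.246) or 2 (0.148), with a replicate block (0.0594) and with each array centered on its median (0.0583). The 2 forms of NR4A1 differed by -1.19 here (standard error 0.13, adjusted p = 0.000348, limma), a 2.27-fold difference.

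The third ERG probe set, 211626_x_at, read 4.56, 4.67 and 4.47 after NR4A1 WT, 5.23 and 5.20 after NR4A1 CEAA, and 5.11, 5.26 and 5.27 after GFP. NR4A1 WT minus GFP was -0.64 (standard error 0.08, adjusted p = 0.000842, limma), and the size of the fall is uncertain because the NR4A1 WT arrays were dim. The suffix x_at marks a set with probes that may also bind other transcripts. After NR4A1 CEAA it differed from GFP by 0.00 (adjusted p = 0.99, 95% interval -0.19 to 0.20). The fourth, 222079_at, stood at 4.64 to 5.16 with overlapping groups and had no call. All 3 lower calls of ERG against GFP held in every limma setting run, with adjusted p up to 0.0242.

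FLI1, the closest relative of ERG and a factor of megakaryocyte genes, had no call after NR4A1 WT in any of its 6 probe sets. The brightest, 204236_at, read 10.93, 10.58 and 10.79 after NR4A1 WT, 10.84 and 10.79 after NR4A1 CEAA, and 10.68, 10.67 and 10.63 after GFP. NR4A1 WT minus GFP was 0.11 (adjusted p = 0.563, limma), and its 95% interval of -0.10 to 0.31 leaves out a fall of the size seen in ERG. A difference between the responses of ERG and FLI1 was not tested.

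FLI1 probe set 211825_s_at was lower after NR4A1 CEAA and had no call after NR4A1 WT (0.06, adjusted p = 0.858). It read 7.26, 7.42 and 7.53 after NR4A1 WT, 6.20 and 6.70 after NR4A1 CEAA, and 7.47, 7.21 and 7.36 after GFP. The 2 NR4A1 CEAA arrays lay below all others and also stood apart from each other. NR4A1 CEAA minus GFP was -0.89 (standard error 0.15, adjusted p = 0.00677, limma, Rank Product q = 0.00404), which was lost without NR4A1 CEAA replicate 1 (0.0534, the highest of 16 settings). NR4A1 WT minus NR4A1 CEAA was 0.95 (standard error 0.15, adjusted p = 0.00204, limma). The other FLI1 probe sets did not share this. 204236_at differed by 0.15 from GFP (adjusted p = 0.393) and 210786_s_at by -0.15 (adjusted p = 0.25). This last probe set read 8.84, 9.00 and 8.95 after NR4A1 WT, 8.69 and 8.66 after NR4A1 CEAA, and 8.81, 8.87 and 8.78 after GFP. It was higher after NR4A1 WT than after NR4A1 CEAA by 0.26 (adjusted p = 0.0374, limma), a call lost in 10 of 16 settings, among them without any 1 of the 3 GFP arrays (0.0526 to 0.0607) or either NR4A1 CEAA array (0.129 and 0.182, the second the highest of the 16). The 3 remaining FLI1 probe sets read 3.13 to 5.12 and had no call.

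**Figure D2:**
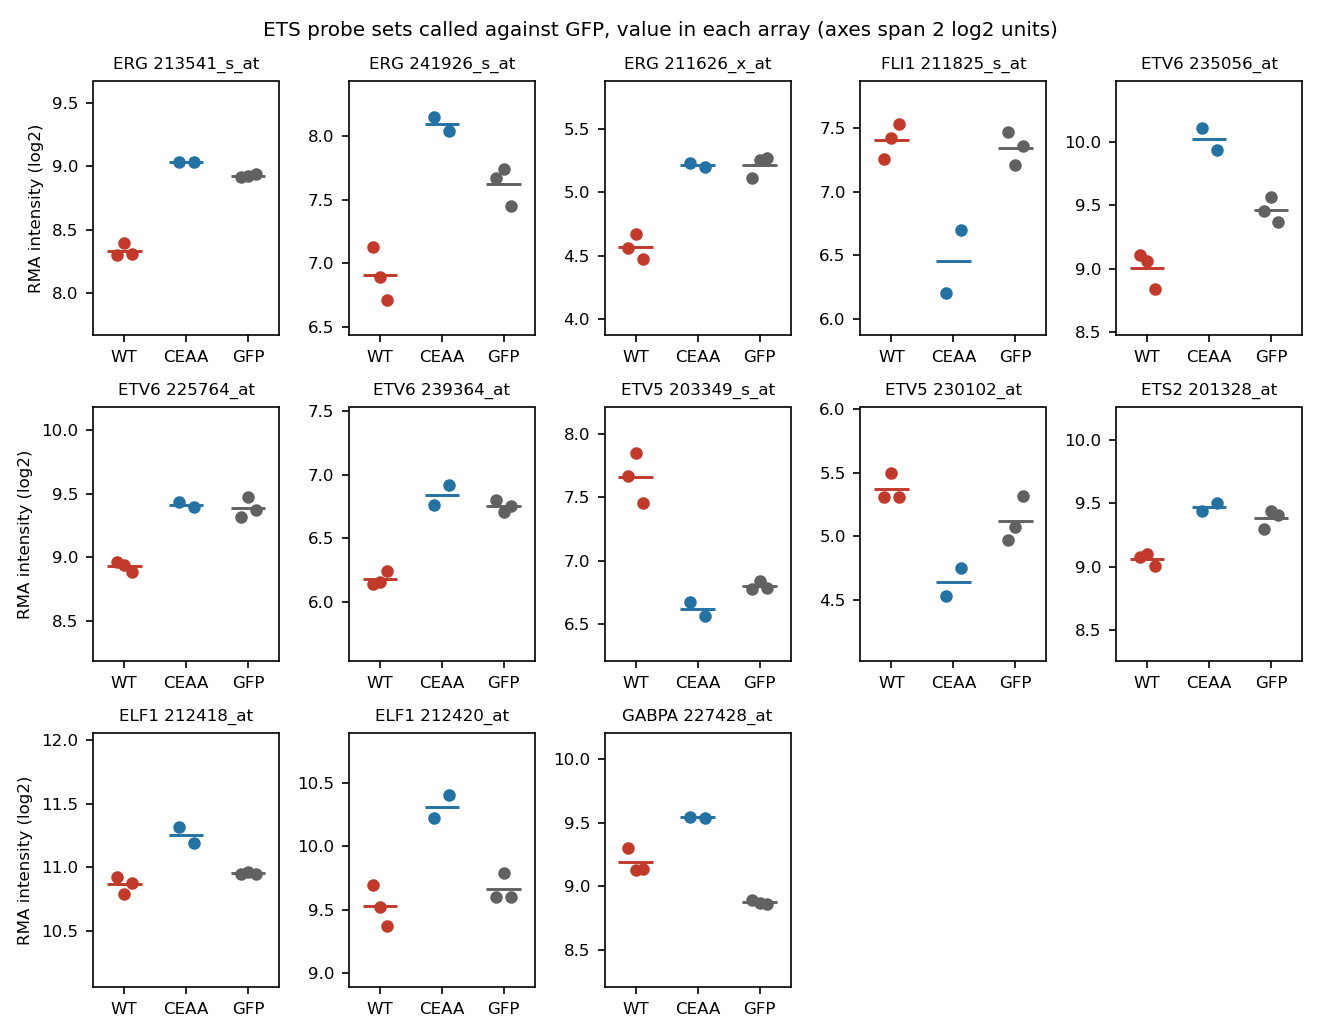
Log2 RMA intensity of the ETS probe sets called against GFP, for NR4A1 WT (red, n = 3), NR4A1 CEAA (blue, n = 2) and GFP (gray, n = 3). Each point is 1 array, each line a group mean, and each vertical axis spans 2 log2 units; the NR4A1 WT arrays of ERG 213541_s_at sit at 8.30 to 8.39, below the other 5 arrays.

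ETV6, a repressor that is a frequent fusion partner in leukemia, fell after NR4A1 WT in 3 of its 5 probe sets. The brightest, 235056_at, read 9.11, 9.06 and 8.84 after NR4A1 WT, 10.11 and 9.93 after NR4A1 CEAA, and 9.46, 9.56 and 9.37 after GFP. As in the second ERG probe set, GFP stood between the other groups with no overlap. Against GFP it was lower by 0.46 after NR4A1 WT (standard error 0.09, adjusted p = 0.0142, limma) and higher by 0.56 after NR4A1 CEAA (standard error 0.10, adjusted p = 0.0106, limma). Without GFP replicate 2 the lower call ended (0.0597, the highest of 17 settings), and without NR4A1 CEAA replicate 1 the higher call ended (0.103, the highest of 17 settings). Neither passed Rank Product (q = 0.179 and 0.239). The 2 forms of NR4A1 differed by -1.02 (standard error 0.10, adjusted p = 0.000246, limma), or 2.03-fold.

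In the other 2 lower probe sets of ETV6 the NR4A1 CEAA arrays stayed near GFP. Probe set 225764_at read 8.97, 8.94 and 8.88 after NR4A1 WT, 9.44 and 9.39 after NR4A1 CEAA, and 9.32, 9.48 and 9.37 after GFP. Probe set 239364_at read 6.14, 6.16 and 6.24 after NR4A1 WT, 6.76 and 6.92 after NR4A1 CEAA, and 6.80, 6.70 and 6.75 after GFP. NR4A1 WT minus GFP was -0.46 in the first (standard error 0.07, adjusted p = 0.00247, limma, Rank Product q = 0.167) and -0.57 in the second (standard error 0.07, adjusted p = 0.000908, limma, Rank Product q = 0.0499). Both calls held in all 16 settings run, and both probe sets were also lower than after NR4A1 CEAA, by 0.49 and 0.66. NR4A1 CEAA minus GFP was 0.03 in the first (95% interval -0.14 to 0.19) and 0.09 in the second (95% interval -0.09 to 0.26), so the higher ETV6 signal after NR4A1 CEAA rested on 235056_at.

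Probe set 205585_at of ETV6 read 5.94, 5.88 and 5.82 after NR4A1 WT, 6.19 and 6.44 after NR4A1 CEAA, and 6.28, 6.22 and 5.93 after GFP. It had no call against GFP (-0.26, adjusted p = 0.181 after NR4A1 WT), and was lower with NR4A1 WT than with NR4A1 CEAA by 0.43 (adjusted p = 0.0296, limma). That call ended without NR4A1 WT replicate 2 (0.0646) or 3 (0.0738), without NR4A1 CEAA replicate 2 (0.229, the highest of 16 settings) and with a replicate block (0.0659). The fifth, 239740_at, stood at 5.60 to 5.93 with a difference of 0.02 (adjusted p = 0.934). The direction after NR4A1 WT was thus shared by 4 of 5 ETV6 probe sets and by 4 of 4 of ERG.

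ETV5, of the PEA3 group that is induced when ERK is active, moved the other way. Its brightest probe set, 203349_s_at, read 7.67, 7.85 and 7.46 after NR4A1 WT, 6.68 and 6.57 after NR4A1 CEAA, and 6.78, 6.84 and 6.78 after GFP. Every NR4A1 WT array stood above the other 5. NR4A1 WT minus GFP was 0.86 (standard error 0.10, adjusted p = 0.000715, limma, Rank Product q = 0.00595), or 1.81-fold higher, and the call held in 17 of 17 settings. NR4A1 WT minus NR4A1 CEAA was 1.03 (standard error 0.11, adjusted p = 0.000284, limma), while NR4A1 CEAA minus GFP was -0.18 (adjusted p = 0.354, 95% interval -0.43 to 0.07).

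All 5 ETV5 probe sets had a positive difference after NR4A1 WT, and only 203349_s_at passed the test. The next, 203348_s_at, read 6.57, 6.40 and 6.05 after NR4A1 WT, 6.04 and 6.27 after NR4A1 CEAA, and 5.99, 5.66 and 5.97 after GFP. Its difference from GFP was 0.47 (adjusted p = 0.0815, limma), and it passed without NR4A1 WT replicate 3 (0.0226), with an intensity trend (0.0189) and without dim probe sets (0.0443), in a range of 0.0189 to 0.231 over 16 settings. Probe set 230102_at was lower after NR4A1 CEAA. It read 5.31, 5.50 and 5.31 after NR4A1 WT, 4.53 and 4.75 after NR4A1 CEAA, both dim, and 4.97, 5.07 and 5.32 after GFP. NR4A1 CEAA minus GFP was -0.48 (standard error 0.12, adjusted p = 0.0334, limma), which was lost without GFP replicate 2 (0.0675) or 3 (0.0848), without NR4A1 CEAA replicate 1 (0.232, the highest of 16 settings) or 2 (0.0771) and with a replicate block (0.0643). NR4A1 WT minus NR4A1 CEAA was 0.74 there (standard error 0.12, adjusted p = 0.00269, limma). The remaining probe sets read 4.89 to 5.26 and 3.67 to 3.88 and had no call.

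ETS1 and ETS2 are the founding members of the family and direct targets of ERK phosphorylation. ETS1 was near or under the median of the arrays in its 3 probe sets. The brightest, 214447_at, read 5.07, 4.97 and 5.14 after NR4A1 WT, 4.83 and 4.97 after NR4A1 CEAA, and 5.04, 4.92 and 5.07 after GFP, with overlapping groups and no call. Probe set 224833_at, dim throughout, read 3.11, 3.11 and 3.26 after NR4A1 WT, 2.81 and 2.88 after NR4A1 CEAA, and 2.98, 2.96 and 2.99 after GFP. Its call between the 2 forms of NR4A1 (0.31, adjusted p = 0.0158, limma) is in a range not shown to be above background and ended without NR4A1 CEAA replicate 1 (0.119, the highest of 15 settings) or 2 (0.0594), with a replicate block (0.054) and with only the 2 groups compared (0.0523).

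ETS2 was lower after NR4A1 WT in its brightest probe set, 201328_at, with 9.08, 9.10 and 9.01 after NR4A1 WT, 9.44 and 9.50 after NR4A1 CEAA, and 9.30, 9.44 and 9.41 after GFP. The NR4A1 WT arrays lay below all others. The difference from GFP was small, at -0.32 (standard error 0.07, adjusted p = 0.015, limma, 1.25-fold lower). It ended without GFP replicate 2 (0.0648, the highest of 17 settings), GFP replicate 3 (0.0599) or NR4A1 WT replicate 3 (0.0507) and did not pass Rank Product (q = 0.51). Against NR4A1 CEAA the difference was -0.41 (standard error 0.07, adjusted p = 0.00416, limma). The second, 201329_s_at, read 7.84, 7.78 and 7.80 after NR4A1 WT, 8.22 and 8.04 after NR4A1 CEAA, and 8.16, 8.08 and 7.94 after GFP. It had the same order of groups, with -0.26 against GFP (adjusted p = 0.0852, limma) and -0.33 against NR4A1 CEAA (adjusted p = 0.0301, limma). The second of these ended without NR4A1 WT replicate 2 (0.0695) or 3 (0.0645), without NR4A1 CEAA replicate 1 (0.228, the highest of 16 settings) and with a replicate block (0.0586).

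ELF1, a factor of lymphoid and myeloid genes, had no call after NR4A1 WT and was higher after NR4A1 CEAA in both probe sets. Probe set 212418_at read 10.93, 10.79 and 10.88 after NR4A1 WT, 11.32 and 11.19 after NR4A1 CEAA, and 10.95, 10.96 and 10.95 after GFP. Probe set 212420_at read 9.70, 9.53 and 9.38 after NR4A1 WT, 10.22 and 10.40 after NR4A1 CEAA, and 9.60, 9.79 and 9.60 after GFP. The NR4A1 CEAA arrays were the highest in both, while NR4A1 WT and GFP overlapped in the second. NR4A1 CEAA minus GFP was 0.30 in the first (standard error 0.07, adjusted p = 0.0294, limma) and 0.65 in the second (standard error 0.11, adjusted p = 0.00789, limma). The first call was lost with a replicate block (0.0695), without any 1 of the 3 GFP arrays (0.0706 to 0.0829) and without NR4A1 CEAA replicate 1 (0.208, the highest of 17 settings) or 2 (0.0777), the second without NR4A1 CEAA replicate 2 (0.0792). NR4A1 WT minus NR4A1 CEAA was -0.39 (adjusted p = 0.00529, limma, with 0.0606 once NR4A1 CEAA replicate 1 was left out, the highest of 17 settings) and -0.78 (adjusted p = 0.00133, limma).

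GABPA, the DNA binding subunit of GA binding protein, was higher than with GFP after both forms of NR4A1. Probe set 227428_at read 9.30, 9.13 and 9.14 after NR4A1 WT, 9.55 and 9.54 after NR4A1 CEAA, and 8.89, 8.87 and 8.86 after GFP. The 3 groups did not overlap, and NR4A1 CEAA was the highest. NR4A1 WT minus GFP was 0.32 (standard error 0.07, adjusted p = 0.0168, limma), which was lost without GFP replicate 1 (0.0543), 2 (0.0599) or 3 (0.0623, the highest of 17 settings) and had a Rank Product q of 0.55. NR4A1 CEAA minus GFP was 0.67 (standard error 0.07, adjusted p = 0.00129, limma, Rank Product q = 0.13) and held in 17 of 17 limma settings. The 2 forms differed by -0.35 (adjusted p = 0.00898, limma), a difference that was not called without NR4A1 CEAA replicate 1 (0.0651, the highest of 17 settings) or 2 (0.058). The other probe set, 210188_at, read 6.10 to 6.54 and had positive differences from GFP of 0.15 after NR4A1 WT (adjusted p = 0.429) and 0.32 after NR4A1 CEAA (adjusted p = 0.0881).

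ELF4, which acts in stem cell quiescence and cytotoxic lymphocytes, and ELK3, a cofactor of serum response factor that represses until it is phosphorylated, had no call in any comparison. ELF4 31845_at read 8.25, 8.27 and 8.18 after NR4A1 WT, 8.09 and 8.01 after NR4A1 CEAA, and 8.32, 8.23 and 8.23 after GFP. The NR4A1 CEAA arrays were the lowest, and NR4A1 CEAA minus GFP was -0.21 (adjusted p = 0.0922, 95% interval -0.37 to -0.05), which passed in 4 of 17 settings (adjusted p as low as 0.0268). ELK3 221773_at read 11.08, 10.85 and 10.97 after NR4A1 WT, 11.14 and 11.14 after NR4A1 CEAA, and 10.98, 11.02 and 10.93 after GFP. Its difference after NR4A1 WT was -0.01 (adjusted p = 0.964, 95% interval -0.18 to 0.16). The dimmer ELK3 probe set, 206127_at, read 5.17, 5.23 and 5.15 after NR4A1 WT, 4.89 and 4.94 after NR4A1 CEAA, and 5.55, 4.75 and 4.83 after GFP. GFP replicate 1 stood apart there, and without it NR4A1 WT was higher than GFP (adjusted p = 0.0184, in a range of 0.0184 to 0.99 over 16 settings) and than NR4A1 CEAA (0.0391, in a range of 0.0391 to 0.66).

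**Figure D3:**
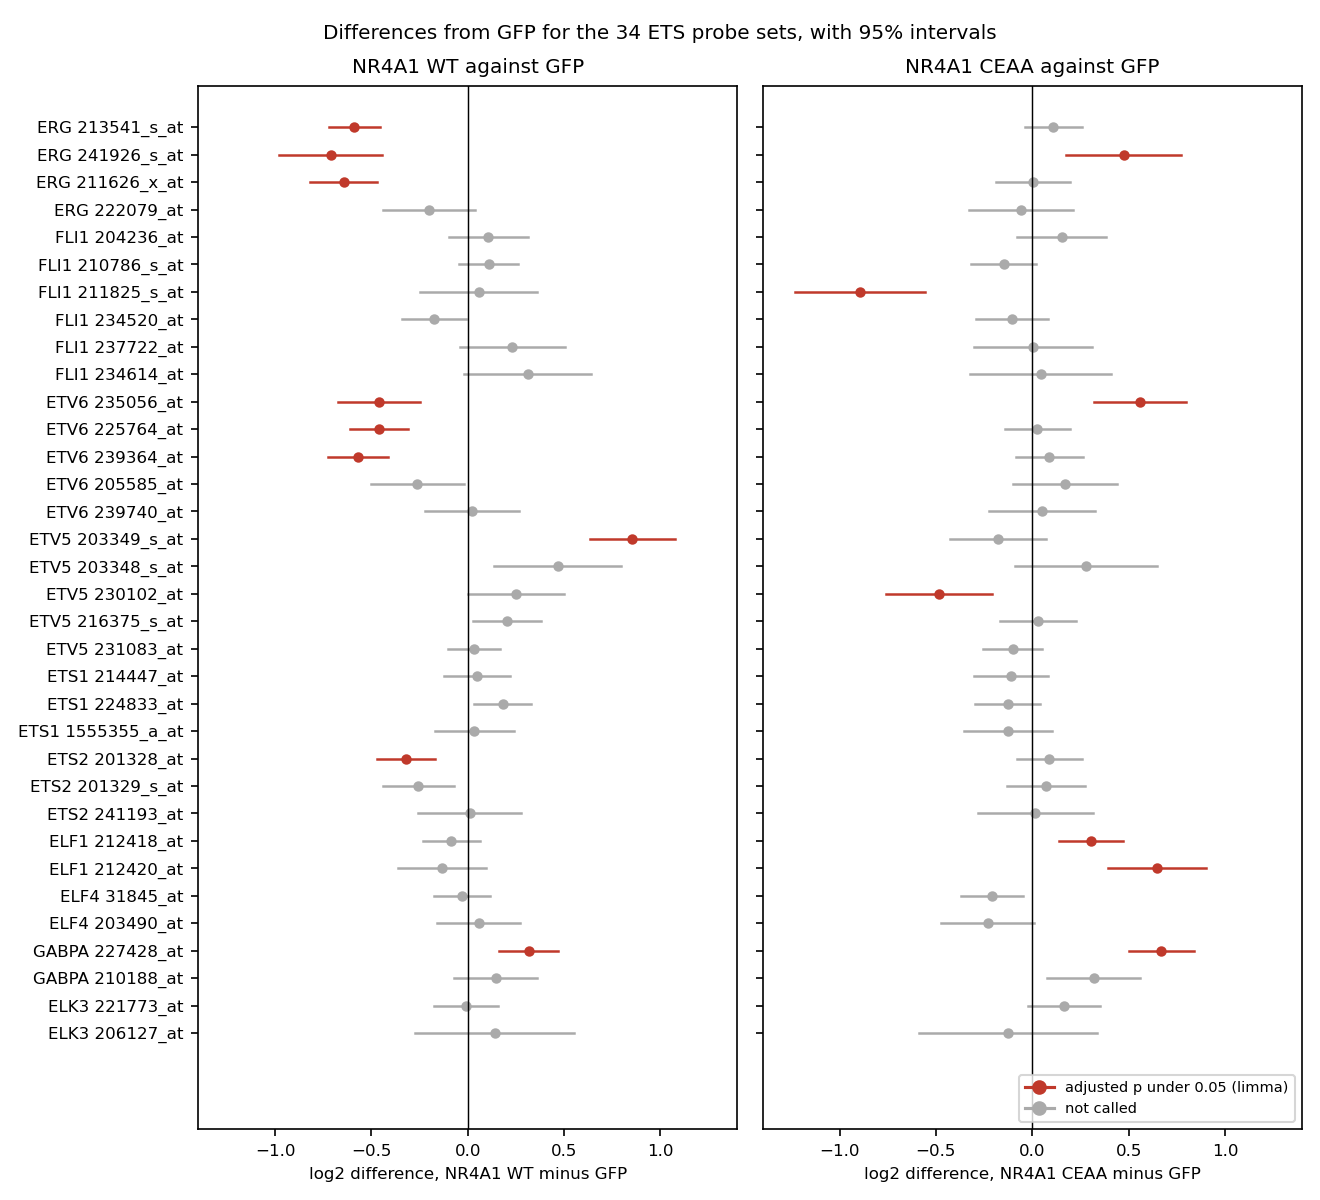
Log2 difference from GFP with its 95% interval for each of the 34 ETS probe sets, NR4A1 WT minus GFP on the left and NR4A1 CEAA minus GFP on the right (red, adjusted p under 0.05 by limma). Both panels use the same 3 GFP arrays; ERG 241926_s_at lies at -0.71 on the left and 0.47 on the right, and ETV6 235056_at at -0.46 and 0.56.

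Among the other ETS genes, 1 of 49 probe sets was higher and 2 lower after NR4A1 WT than after GFP (2.04% and 4.08%), for 17 of 18 listed genes. All probe sets had 5.06% higher and 5.56% lower. The median difference of the 49 was 0.03. SPI1 (PU.1), the master factor of myeloid cells, read 6.01, 5.72 and 5.89 after NR4A1 WT, 6.27 and 6.33 after NR4A1 CEAA, and 6.81, 6.84 and 6.89 after GFP. It was lower by 0.97 after NR4A1 WT (standard error 0.08, adjusted p = 0.000131, limma) and by 0.55 after NR4A1 CEAA (standard error 0.09, adjusted p = 0.0068, limma, with 0.0692 once NR4A1 CEAA replicate 1 was left out, the highest of 17 settings). ERF, an ETS repressor that ERK moves out of the nucleus, was lower by 0.48 after NR4A1 WT (adjusted p = 0.00183, limma, Rank Product q = 0.135) and by 0.72 after NR4A1 CEAA (adjusted p = 0.000906, limma). Its second probe set had no call.

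ELK1 and ELK4, like ELK3 cofactors of serum response factor, differed after NR4A1 CEAA, and in part between their own probe sets. ELK4 238761_at read 6.02, 5.81 and 5.77 after NR4A1 WT, 6.85 and 6.98 after NR4A1 CEAA, and 5.84, 6.00 and 5.97 after GFP, a difference of 0.98 between NR4A1 CEAA and GFP (standard error 0.10, adjusted p = 0.000792, limma). A second probe set, 206919_at, was higher there by 0.55 (adjusted p = 0.0165, limma), with 4.97 and 4.70 after NR4A1 CEAA (the second dim) and dim values after GFP. That call ended without NR4A1 CEAA replicate 1 (0.145, the highest of 15 settings) or GFP replicate 2 (0.0518) and with a replicate block (0.0642). The brightest ELK4 probe set, 225159_s_at, had no call between NR4A1 CEAA and GFP (0.16, adjusted p = 0.164). ELK1 210376_x_at was lower after NR4A1 CEAA by 0.85 (standard error 0.11, adjusted p = 0.0026, limma), while its brightest probe set, 203617_x_at, differed there by -0.20 (adjusted p = 0.088) and was higher after NR4A1 WT by 0.29 (adjusted p = 0.0139, limma, with 0.0641 once GFP replicate 1 was left out, the highest of 17 settings). In all, 2 of the 49 were higher and 3 lower after NR4A1 CEAA (4.08% and 6.12%), with a median of -0.01. Among all probe sets these shares were 5.91% and 6.81%. Against NR4A1 CEAA, 3 were higher after NR4A1 WT, of ELK1 and ERF, and 4 lower, of ELK4 and SPI1. That was 6.12% and 8.16%, beside 11.2% and 10.9% among all probe sets. The ERF call (0.24, adjusted p = 0.0471, limma) was lost in 11 of 17 settings (adjusted p up to 0.272), among them without any 1 of the 8 arrays, and that of SPI1 (-0.43, adjusted p = 0.0096, limma) without NR4A1 CEAA replicate 2 (0.0792, the highest of 17). In ELK4 225159_s_at (-0.31, adjusted p = 0.00921, limma) the call was lost without NR4A1 CEAA replicate 1 (0.0518) or 2 (0.0723, the highest of 17).

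Partners and cofactors of ETS proteins were covered by 34 probe sets of 13 of 16 listed genes. Of these probe sets, 4 stood above GFP and 2 below it after NR4A1 WT (11.8% and 5.88%, median -0.01). Among all probe sets 5.06% were higher and 5.56% lower. GABPB2, which encodes a beta subunit that joins GABPA, read 8.01, 8.06 and 8.15 after NR4A1 WT, 7.19 and 7.34 after NR4A1 CEAA, and 7.31, 7.36 and 7.42 after GFP. It was higher by 0.72 after NR4A1 WT (standard error 0.07, adjusted p = 0.000354, limma), and NR4A1 CEAA minus GFP was -0.10 (adjusted p = 0.503). GABPB1, the other listed beta subunit gene, named after its values were seen, had no call against GFP in its 2 probe sets. Its means after NR4A1 WT and GFP were 8.99 and 8.93 in 204618_s_at, and 7.19 and 7.10 in 206173_x_at.

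The stem cell factors that share enhancers with ERG and FLI1 divided by gene. GATA2 209710_at read 8.40, 8.52 and 8.29 after NR4A1 WT, 7.45 and 7.37 after NR4A1 CEAA, and 7.47, 7.49 and 7.41 after GFP, which put it 0.95 higher after NR4A1 WT (standard error 0.08, adjusted p = 9.59e-05, limma). LMO2 204249_s_at, an adaptor protein gene, read 10.32, 10.18 and 10.21 after NR4A1 WT, 10.93 and 10.91 after NR4A1 CEAA, and 10.93, 11.03 and 10.95 after GFP, which put it 0.74 lower (standard error 0.07, adjusted p = 0.000186, limma). TAL1 206283_s_at was lower by 1.04 after NR4A1 WT (standard error 0.11, adjusted p = 0.000374, limma) in 1 of 4 probe sets, and the other 3 were not called. NR4A1 CEAA differed from GFP by no more than 0.07 in GATA2 209710_at, LMO2 204249_s_at and TAL1 206283_s_at, with no call. NR4A1 WT differed from NR4A1 CEAA in each of them, by 1.00, -0.68 and -1.11. GATA2 210358_x_at was also called higher after NR4A1 WT than after GFP (means 6.49 and 5.97), a call lost in 3 of 16 settings. GATA2 207954_at (5.65 and 5.61), LMO2 231049_at (5.58 and 6.14) and LYL1 (11.63 and 11.55) had no call between NR4A1 WT and GFP.

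Among the coactivator genes, CREBBP, chosen after its values were seen as the last gene called after NR4A1 WT, was higher there than after GFP by 0.52 in 202160_at (adjusted p = 0.000697, limma, Rank Product q = 0.0913). Its other 3 probe sets had no call. NR4A1 WT exceeded NR4A1 CEAA in 202160_at by 0.33 (adjusted p = 0.00783, limma), which ended without NR4A1 CEAA replicate 2 (0.0738, the highest of 17 settings). EP300 was higher after NR4A1 CEAA in both probe sets, by 0.48 in 202221_s_at (adjusted p = 0.0124, limma), which was lost without NR4A1 CEAA replicate 1 (0.0865) or 2 (0.0877, the highest of 16 settings). Its other probe set was higher by 0.46 (adjusted p = 0.0233, limma), a call lost in 5 of 17 settings with adjusted p up to 0.157. Between the 2 forms, 202221_s_at of EP300 had no call (-0.25, adjusted p = 0.0872, limma), and the call in 213579_s_at (-0.39, adjusted p = 0.0266, limma) was lost in 5 of 17 settings (adjusted p up to 0.163). L3MBTL1, which encodes a chromatin protein that binds ETV6, was lower after NR4A1 CEAA by 0.52 in 1 of its 6 probe sets (adjusted p = 0.00586, limma, with 0.0637 once NR4A1 CEAA replicate 1 was left out, the highest of 16 settings). After NR4A1 CEAA 2 of the 34 were higher and 4 lower (5.88% and 11.8%), beside 5.91% and 6.81% among all probe sets. The higher ones were both of EP300. The lower ones were of L3MBTL1 and, named after their values were seen, LYL1 (-0.40), SIN3A (-0.29) and SRF (-0.25). The LYL1 call ended without NR4A1 CEAA replicate 1 (0.0862, the highest of 17 settings). The SIN3A call was lost in 6 of 17 settings (adjusted p up to 0.121) and the SRF call in 9 of 17 (adjusted p up to 0.204), both of them without any 1 GFP or NR4A1 CEAA array and with a replicate block. Against NR4A1 CEAA, 7 were higher after NR4A1 WT and 4 lower (20.6% and 11.8%), beside 11.2% and 10.9% among all probe sets. The lower ones were of TAL1, LMO2 and EP300.

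ETV5 is commonly read as one of the genes that ERK signaling induces, so the feedback genes of that pathway were set beside it. After NR4A1 WT 5 of the 22 probe sets of these 11 genes stood above GFP and 0 below it in limma (22.7%), with a median of 0.12. Of the 5, 3 passed Rank Product. In limma 5.06% of all probe sets were higher and 5.56% lower. At an unadjusted p under 0.05, 5 were higher and 2 lower, beside 11.2% higher and 11.4% lower among all probe sets, and Rank Product passed none as lower. SPRY2, an inhibitor of RAS signaling, read 9.40, 9.40 and 9.33 after NR4A1 WT, 8.74 and 8.72 after NR4A1 CEAA, and 8.45, 8.61 and 8.52 after GFP. Its difference from GFP was 0.85 (standard error 0.07, adjusted p = 8.35e-05, limma). DUSP5, a nuclear phosphatase of ERK, read 8.76, 8.65 and 8.56 after NR4A1 WT, 7.89 and 7.72 after NR4A1 CEAA, and 7.96, 7.87 and 7.79 after GFP, a difference of 0.79 (standard error 0.08, adjusted p = 0.000404, limma).

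SPRY4 was higher by 0.72 after NR4A1 WT (standard error 0.10, adjusted p = 0.00193, limma) and SPRED2, another inhibitor of the pathway, by 0.37 (adjusted p = 0.0133, limma), the last with no call without GFP replicate 1 (0.0586, the highest of 17 settings) or 3 (0.0514). EGR1, the fifth and named after its values were seen, was higher by 0.32 (adjusted p = 0.0275, limma), a call lost in 8 of 17 settings with adjusted p up to 0.0909. SPRED2 and EGR1 were each called in 1 of 3 probe sets. DUSP4, DUSP6, SPRY1, SPRED1, IER3 and FOSL1 had no call between NR4A1 WT and GFP. DUSP6 208891_at averaged 11.56 after NR4A1 WT and 11.39 after GFP, and DUSP4 204015_s_at 4.91 and 5.23. SPRY2, DUSP5, SPRY4 and SPRED2 were not called after NR4A1 CEAA, and NR4A1 WT exceeded NR4A1 CEAA in these 4 by 0.58 to 0.85 (limma, adjusted p up to 0.00316). A smaller set, of 4 probe sets, was higher after NR4A1 CEAA than after GFP (18.2%, median 0.17) and 0 lower in limma. Among all probe sets 5.91% were higher and 6.81% lower. An unadjusted p under 0.05 gave 10 higher and 1 lower, beside 12.9% higher and 13.4% lower among all probe sets. The 4 were of DUSP6 (0.32 and 0.26, named after its values were seen), SPRED1 and SPRY1. The other probe sets of these genes had no call by limma. They were DUSP6 208891_at (0.22, adjusted p = 0.138), SPRED1 226837_at (0.46, adjusted p = 0.0905) and 244439_at (0.01, adjusted p = 0.982), and SPRY1 230212_at (-0.20, adjusted p = 0.237). Of the called ones, SPRED1 stood at 0.37 (adjusted p = 0.0171) and SPRY1 at 0.39 (adjusted p = 0.024) by limma. Without NR4A1 CEAA replicate 1 or 2 neither was called (0.102 and 0.109 for SPRED1, 0.116 and 0.148 for SPRY1), SPRY1 also without any 1 GFP array (0.0559 to 0.0724), and none of the 4 passed Rank Product. The DUSP6 calls were lost in 7 of 16 settings in 208892_s_at (adjusted p up to 0.189) and in 8 of 16 in 208893_s_at (adjusted p up to 0.215), both without any 1 GFP or NR4A1 CEAA array, with a replicate block and with each array centered on its median. Against NR4A1 CEAA, 4 probe sets were higher after NR4A1 WT and 2 lower (18.2% and 9.09%), beside 11.2% and 10.9% among all probe sets. The lower ones were of SPRY1 and FOSL1. The SPRY1 call (-0.30, adjusted p = 0.0459, limma) was lost in 11 of 17 settings (adjusted p up to 0.208). FOSL1, which encodes an AP-1 subunit induced by ERK and was named after its values were seen, read 4.50, 4.96 and 4.85 after NR4A1 WT, 5.83 and 5.71 after NR4A1 CEAA, and 5.07, 5.28 and 5.51 after GFP. The 3 groups did not overlap, and NR4A1 WT was the lowest. It was lower with NR4A1 WT than with NR4A1 CEAA by 1.00 (standard error 0.16, adjusted p = 0.00208, limma), a call that held in 17 of 17 settings, while NR4A1 WT minus GFP was -0.52 (adjusted p = 0.0517, limma) and NR4A1 CEAA minus GFP 0.49 (adjusted p = 0.0815, limma).

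Of 38 probe sets of 18 known ETS target genes of megakaryocytes and endothelium (19 listed), 3 were lower and 0 higher after NR4A1 WT than after GFP (7.89%, limma, all 3 also by Rank Product), beside 5.56% lower among all probe sets, with a median of -0.015. Many of the 38 were dim. All probe sets of KDR, CDH5, TEK, TIE1 and ANGPT2, named after their values were seen, were dim in the 8 arrays and are not shown to be above background. At an unadjusted p under 0.05, 5 of the 38 were lower and 2 higher, beside 11.4% lower and 11.2% higher among all probe sets. Rank Product passed none as higher. ENG, a coreceptor of TGF-beta, read 7.99, 7.98 and 7.99 after NR4A1 WT, 8.20 and 8.29 after NR4A1 CEAA, and 8.54, 8.60 and 8.62 after GFP. It was lower by 0.60 after NR4A1 WT (standard error 0.06, adjusted p = 0.000325, limma) and by 0.34 after NR4A1 CEAA (adjusted p = 0.0122, limma, with 0.11 once NR4A1 CEAA replicate 1 was left out, the highest of 17 settings, or 0.0565 without replicate 2). ICAM2, an adhesion molecule gene, was lower after NR4A1 WT in both probe sets, by 0.83 (adjusted p = 0.0061, limma) and 0.72 (adjusted p = 0.00179, limma). After NR4A1 CEAA 2 of the 38 were lower and 0 higher in limma (5.26%, beside 6.81% lower among all probe sets, median -0.08). An unadjusted p under 0.05 gave 4 lower and 1 higher, beside 13.4% lower and 12.9% higher among all probe sets. None were higher by Rank Product. Of the 2 called lower by limma, EGFL7, an endothelial secreted protein gene, passed Rank Product. EGFL7 read 10.48, 10.55 and 10.58 after NR4A1 WT, 9.82 and 9.74 after NR4A1 CEAA, and 10.57, 10.56 and 10.58 after GFP, a difference of -0.79 between NR4A1 CEAA and GFP (standard error 0.07, adjusted p = 0.000455, limma). Against NR4A1 CEAA, 2 of the 38 were higher after NR4A1 WT and 4 lower (5.26% and 10.5%), beside 11.2% and 10.9% among all probe sets. Of the 2 higher, PECAM1 208983_s_at was dim in the 8 arrays (3.17 to 4.04), and no other PECAM1 probe set was called. The EGFL7 difference between the 2 forms was 0.76 (adjusted p = 0.000119, limma) and held in 17 of 17 settings, and the other 5 calls, of PECAM1 (higher) and ICAM2, FLT1, ENG and VWF (lower), all named after their values were seen except ICAM2 and ENG, were lost in 1 to 12 settings each.

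**Figure D4:**
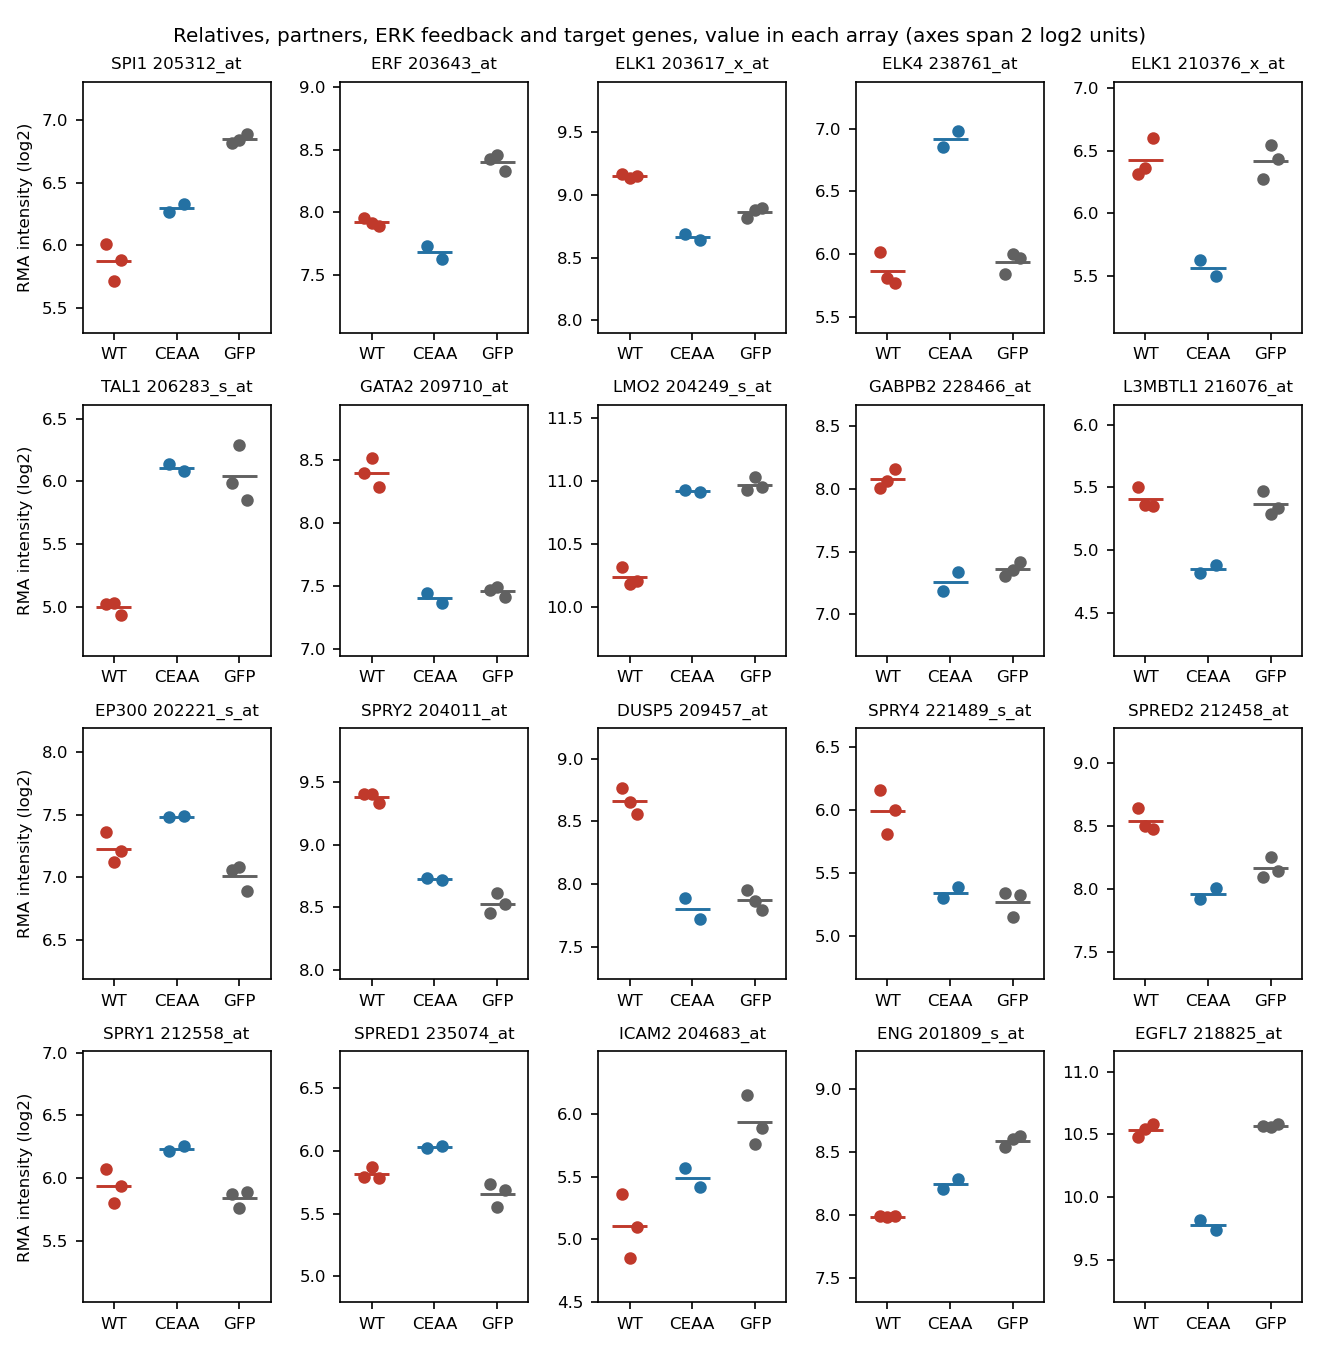
Log2 RMA intensity of probe sets of other ETS genes, partners, ERK feedback genes and ETS target genes in each array, for NR4A1 WT (red, n = 3), NR4A1 CEAA (blue, n = 2) and GFP (gray, n = 3), with lines at the group means. Axes span 2 log2 units each; the NR4A1 WT arrays of SPRY2 sit at 9.33 to 9.40 and those of GFP at 8.45 to 8.61.

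The profiles most like those of ERG and ETV6 were found by the root mean square difference over the 8 arrays, each profile taken relative to its own GFP mean. For ERG 213541_s_at, among 41087 probe sets, these were WIPF3 (0.03), OGFOD1 (0.04) and GRPEL1 (0.04). For ETV6 235056_at, among 41086, they were CHML (0.05), BCL11A (0.05) and PTGR2 (0.07). These are descriptions over arrays of only 3 groups, and nothing on shared control or function is read from them.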

How the data were processed

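Kasumi-1 total RNA was hybridized to 8 Affymetrix U133 Plus arrays, 3 with NR4A1 WT, 2 with NR4A1 CEAA and 3 with GFP. Per the labels and methods, the authors deposited log2 intensities, 1 per probe set and array, from RMA in RMA Express (version not given in the sources used here), which corrects background, normalizes by quantiles and summarizes probes. They ran from 2.29 to 14.97. RMA pulls the arrays to 1 distribution, so a change shared by most transcripts cannot be seen, and it compresses low values. No detection calls were used, and the number of arrays limits the precision. Arrays were grouped by their labels.

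All 54613 probe sets were fitted together with lmFit and eBayes of limma 3.58.1 (R 4.3.3, default settings, 8.69 degrees of freedom per probe set), with the 3 groups in 1 model and no covariate. Each form of NR4A1 was compared with GFP, and the 2 forms with each other as the direct test of their difference. The comparisons with GFP share its arrays and are given side by side. Calls are at an adjusted p under 0.05 (Benjamini-Hochberg over all probe sets). Symbols came from the platform annotation (41091 probe sets with 1 symbol, 1801 with several, 11721 with none), and 41037 of the first kind matched the gene table with 0 symbols updated. Probe sets of paralogs may share signal. Listed genes with no such probe set were not analysed here.

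The members and lists were chosen with earlier results of these data known, the lists from general knowledge. For the 10 genes, values in every array were given for probe sets called in any comparison or, failing that, the brightest. From each list up to 4 genes called after NR4A1 WT and up to 2 called after NR4A1 CEAA with the largest difference were named, and the 3 nearest profiles of ERG and ETV6. The profiles nearest to FLI1 were left unnamed because its brightest probe set was not called after NR4A1 WT.

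Alternatives were Rank Product (the study's test, written for these data with 100 permutations, q up to 0.05), an intensity trend, array weights, the 2 groups compared alone, no dim probe sets, only probe sets with 1 symbol, 1 probe set per gene, quantile normalization again, arrays centered on their medians, a replicate block, leaving out single arrays, and a limit of 0.01 on the adjusted p. With 1 NR4A1 CEAA array left, that array is taken to vary like the other groups. The tests were run on simulated data first.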

Additional observations from a re-analysis of the deposited data

Results flagged for a closer look

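In ERG 241926_s_at and ETV6 235056_at the 2 forms of NR4A1 moved opposite ways from GFP, each called by limma, and the difference between the forms was itself called. NR4A1 WT minus NR4A1 CEAA was -1.19 in ERG 241926_s_at (adjusted p = 0.000348) and -1.02 in ETV6 235056_at (adjusted p = 0.000246). The higher side, after NR4A1 CEAA, was called in 8 of 16 settings for ERG, and for ETV6 it was lost without NR4A1 CEAA replicate 1 (0.103). In both genes the other probe sets that were lower after NR4A1 WT had no call after NR4A1 CEAA, with differences from GFP of 0.00 to 0.11.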

How the results depend on the processing

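Over the alternatives run, 518 values of called ETS probe sets kept direction and call, 89 lost the call and 0 changed direction. Rank Product ended most of the calls. Counts by limma and by Rank Product were 2 and 1 higher and 7 and 4 lower for NR4A1 WT against GFP, 5 and 0 higher and 2 and 1 lower for NR4A1 CEAA against GFP, and 5 and 2 higher and 12 and 1 lower for NR4A1 WT against NR4A1 CEAA. With 1 probe set per gene, 3 were lower after NR4A1 WT than after GFP, 3 higher and 1 lower after NR4A1 CEAA than after GFP, and 1 higher and 5 lower with NR4A1 WT than with NR4A1 CEAA, since fewer probe sets are tested. At an adjusted p under 0.01, 1 was higher after NR4A1 WT than after GFP, 2 higher and 1 lower after NR4A1 CEAA than after GFP, and 3 higher after NR4A1 WT than after NR4A1 CEAA. Only the counts that moved most are given for this limit. The lower calls after NR4A1 WT against GFP of ERG (limma, adjusted p up to 0.00495) and of ETV6 225764_at (0.00247) and 239364_at (0.000908) stayed under 0.01. With the 2 groups alone, 3 were higher after NR4A1 WT than after NR4A1 CEAA, with fewer arrays to estimate the spread. Leaving out 1 array gave 1 to 3 higher and 5 to 7 lower for NR4A1 WT against GFP, 2 to 6 higher and 0 to 2 lower for NR4A1 CEAA against GFP, and 3 to 5 higher and 9 to 12 lower for NR4A1 WT against NR4A1 CEAA.

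The replicate numbers did not pair the arrays (correlations of same-numbered deviations of -0.03 to 0.06). With a replicate block, 3 probe sets were higher and 1 lower after NR4A1 CEAA than after GFP, and 3 higher after NR4A1 WT than after NR4A1 CEAA; over all probe sets the 3 comparisons called 4686, 3988 and 9813, where they called 5801, 6951 and 12086 without it. Dim probe sets give only uncertain sizes.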
